A study of Mus musculus with 20 samples.

Results

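Heat-shock proteins and chaperones were followed through 10 genes: *Hspa1a*, *Hspa1b*, *Hspa1l*, *Hspa8*, *Hsph1*, *Hspb1*, *Dnajb1*, *Hsp90aa1*, *Hspd1* and *Hspe1*. They were chosen by symbol from the first column of the deposited table, with earlier results of these data known. All 10 were found among its 16810 genes. The study sorted microglia by flow cytometry as cells with high eGFP from the thoracic spinal cord of heterozygous CX3CR1+/eGFP mice and sequenced their RNA. The mice were males, injured at 12 weeks of age, and the study does not give the age of the NI mice. Every group, NI included, had eGFP in place of 1 copy of *Cx3cr1*. Lateral hemisection (HS) or full transection (FT) was made at the ninth thoracic level, and cells were taken 72 h, 1 week or 2 weeks later. Non-injured (NI) mice gave 3 libraries, each injured group gave 3, and HS 1 week gave 2. The reporter also marks blood monocytes and the macrophages that derive from them. Tissue of all groups was digested with warm trypsin and hyaluronidase before sorting.

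Chaperones hold other proteins in a fold or return them to one. The inducible HSP70 genes are switched on within minutes of heat, proteotoxic stress or tissue handling by the heat-shock factor HSF1, which binds repeats of the unit GAA, while their constitutive relative HSC70 works in every cell. J-domain proteins deliver clients to HSP70, exchange factors such as HSP110 release them, HSP90 finishes signalling proteins, small heat-shock proteins keep unfolded chains soluble, and HSP60 with HSP10 folds proteins inside mitochondria.

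Values are normalized counts, in which 1 read was worth 0.0330 to 0.292, since the 20 libraries held 3.87 to 34.1 M reads on the genes of the table. Replicates of a group differed by 10.7 to 98.7 times the variance of read sampling over 19 pairs, and the largest values were those of FT 1 week replicate 1 against the others of its group (98.7 and 86.7), so no library was a copy of another. Microglial markers were present in every library. *P2ry12*, a purine receptor of resting microglia, ranged from 1182 to 5085. The summed level of 12 microglial markers was 25360 to 34770 in NI and 22060 to 42070 in the injured groups. The sum of 10 monocyte and macrophage markers was 739.9 to 851 in NI, 2420 to 3731 in HS 72 h, 2768 to 4231 in FT 72 h and 2706 to 7486 in the later groups. The sum of 8 neutrophil markers was 46.0 to 105 in NI, 23.1 to 25.3 in HS 72 h, 20.45 to 55.8 in FT 72 h and 13.1 to 289 in the later groups. The sums of 9 lymphocyte, 11 endothelial and 9 neuronal markers stayed at or under 19.6, 163 and 80.4 in every library, those of 10 astrocyte and 10 oligodendrocyte markers reached 736.5 and 2598, and *Alas2*, the 1 erythroid marker of 7 in the table, reached 16.1. No marker was at 0 in all libraries of a group. The part of these cells in the results below was not tested.

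Sequences upstream of the members were taken from RefSeq (GRCm38.p6), in windows from 250 bases before to 50 after each start, and 8 of the 10 members matched. *Hspa1a* and *Hspa1b* are shown first because they gave the largest falls of the members at 72 h and are near copies of each other upstream. Capitals mark GAANNTTC, a pair of facing units (N is any base), on the strand of the gene.
Hspa1a, chr17:34972157-34972406, minus strand: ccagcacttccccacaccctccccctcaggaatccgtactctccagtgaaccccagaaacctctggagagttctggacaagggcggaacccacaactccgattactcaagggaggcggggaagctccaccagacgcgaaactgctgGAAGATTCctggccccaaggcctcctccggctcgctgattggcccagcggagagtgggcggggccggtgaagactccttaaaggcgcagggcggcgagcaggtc
Hspa1b, chr17:34959239-34959488, minus strand: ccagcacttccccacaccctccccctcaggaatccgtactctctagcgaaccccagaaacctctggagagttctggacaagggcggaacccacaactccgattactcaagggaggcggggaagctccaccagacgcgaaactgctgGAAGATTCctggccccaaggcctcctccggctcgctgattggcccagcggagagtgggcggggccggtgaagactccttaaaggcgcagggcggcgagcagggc
Over these 250 bases the sequences were the same at 247 (98.8%), and the paired units lay at -104 to -97 from the start in both.

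The next set is shown to set *Hsph1*, which fell at 72 h, beside *Hspe1* and *Hspd1*, which did not, and *Hspb1*, which missed the threshold. *Hspb1* held facing units at -117 to -110 and at -97 to -90 from its start. *Hspd1* and *Hspe1* lie head to head and share 1 stretch between them, in which 4 units alternate without a break, at -89 to -72 from the *Hspe1* start and at -144 to -127 from the *Hspd1* start. *Hsph1* held 3 units at 36 to 48 bases after the more upstream of its 2 listed starts. It also held a pair of units back to back (TTCNNGAA) at -33 to -26 from that start, which is not printed below. Capitals mark the units and the bases between them.
Hspb1, chr5:135887789-135887838, plus strand: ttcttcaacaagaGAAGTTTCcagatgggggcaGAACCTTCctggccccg
Hspe1, chr1:55088053-55088082, plus strand: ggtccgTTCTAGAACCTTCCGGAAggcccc
Hsph1, chr5:149636287-149636316, minus strand: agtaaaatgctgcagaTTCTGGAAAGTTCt
A run of 3 units (GAANNTTCNNGAA or TTCNNGAANNTTC, both strands) was found in the windows of 3 of 8 members, against 0.603% of 32841 promoters. A run of 2 units (GAANNTTC or TTCNNGAA, which any run of 3 also holds) was found in 6 of 8 members, against 15.1%, and in neither *Hspa1l* nor *Dnajb1*. Members were chosen as heat-shock genes, so these shares describe them and test nothing.

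Per kb of transcript, the members spanned a wide range of levels in NI microglia. *Hspa8*, which encodes the constitutive HSC70, was highest with a mean of 1701 per kb, followed by *Hsp90aa1* (255), *Hspe1* (144.8), *Dnajb1* (91.6), *Hspd1* (60.1), *Hspa1a* (50.3), *Hspa1b* (33.7), *Hsph1* (29.5), *Hspb1* (7.09) and *Hspa1l* (1.63). At 72 h *Hspa1a* had 8.44 per kb after HS and 10.8 after FT, and *Hspa1b* had 5.32 and 5.36, whereas *Hspa8* had 2015 and 1794. *Hsph1* had 9.26 and 9.36 per kb. Neighbours in this order whose NI libraries overlapped were *Hspd1* with *Hspa1a* and *Hspa1b* with *Hsph1*.

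At 72 h *Hspa1a*, *Hspa1b*, *Hspa1l* and *Hsph1* were lower than in NI after both injuries. A gene was called at a Benjamini-Hochberg adjusted p under 0.05 in limma, over 16810 genes, with a change of at least 2-fold on log2(value + 0.5). In HS 72 h, 4 of 10 members fell (*Hspa1a*, *Hspa1b*, *Hspa1l* and *Hsph1*), beside 4.31% of all genes called lower, and no member rose, beside 9.08% called higher. In FT 72 h, 5 fell, *Dnajb1* being added, beside 4.09% lower and 8.14% higher. The median log2 fold change of the 10 members was -1.19 and -1.2, against -0.11 and -0.09 over all genes. After each injury 9 of 10 members, all but *Hspa8*, had an unadjusted p under 0.05 in limma. So did 6608 of all 16810 genes in HS 72 h and 6156 in FT 72 h. Each comparison with NI uses the same NI libraries, and in bulk RNA fewer cells of a kind and less RNA per cell cannot be told apart. Labels name no animals or days, so p-values measure the spread between these libraries. The study reports RNA from more mice than there are libraries, without saying which mice went into which library.

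The calls at 72 h leaned on single libraries. The HS count of members was 2 (*Hspa1b* and *Hsph1*) without HS 72 h replicate 1, and it was 7 with only the NI and HS 72 h libraries, with columns scaled to 1 total or with the edgeR likelihood ratio test. The FT count was 2 without any one of NI replicates 1, 2 and 3 or FT 72 h replicates 2 and 3. Values of each library, given below, lay below NI in all 6 libraries for the 7 members other than *Hspa8*, *Hspd1* and *Hspe1*. Such a gap from NI was common among all genes. In either direction it was found for 49% of all genes in HS 72 h and 44.9% in FT 72 h, beside 9 members in each. At 1 week it was found for 37.3% of all genes after HS and 21.5% after FT, beside 7 members in each.

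**Figure D1:**
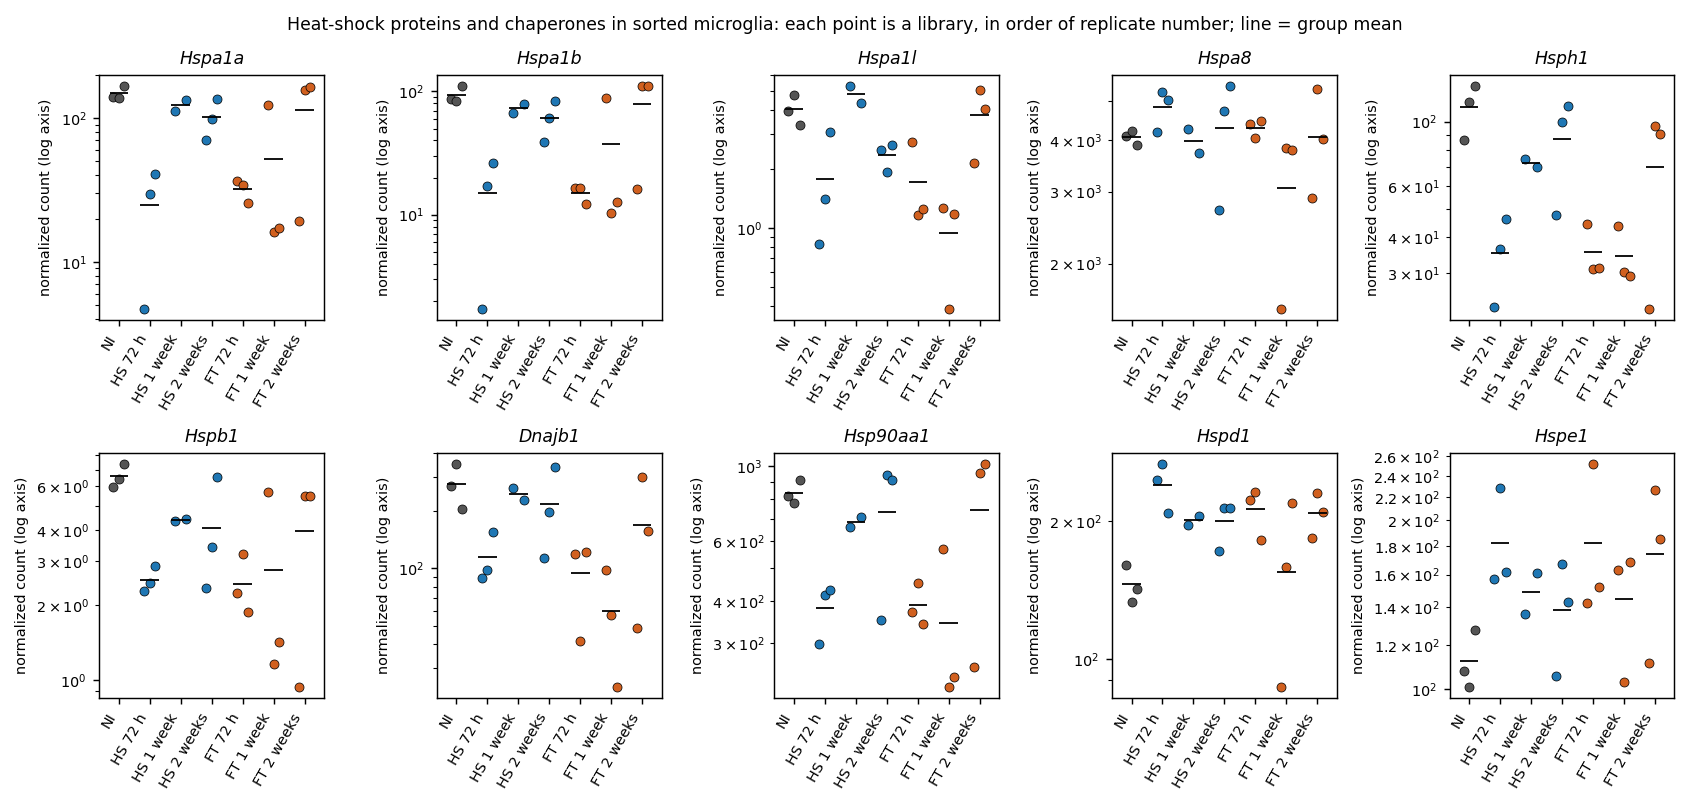
Normalized count (log axis) of each member in every library, by group; points are libraries in order of replicate number and lines are group means. For *Hspa1a* all 6 libraries of 72 h sit between 4.69 and 40.6, below the 139 to 169 of NI, while FT 1 week and FT 2 weeks each hold libraries near both levels.

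*Hspa1a* encodes an inducible HSP70 and lies on chromosome 17 (GRCm38, 34969190 to 34972156, minus strand). Its normalized count was 140.1, 139 and 169 in NI, 4.69, 29.9 and 40.6 in HS 72 h, and 36.3, 34.2 and 25.5 in FT 72 h. All 6 libraries of 72 h were below every NI library, and HS 72 h replicate 1 was far below the rest. The log2 fold change was -3.0 after HS (SE 0.75, limma adjusted p = 0.00512) and -2.21 after FT (SE 0.75, adjusted p = 0.0362). Leaving out HS 72 h replicate 1 gave -2.08 with an adjusted p of 0.0527 for *Hspa1a* (range 0.00316 to 0.0527 over the libraries left out). After FT the adjusted p of *Hspa1a* was 0.0661 to 0.0992 whichever of the 6 libraries compared was left out.

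At the later times *Hspa1a* depended on the library. It was 113 and 135 in HS 1 week and 70.6, 98.6 and 137 in HS 2 weeks, below NI in all 5 libraries, with log2 fold changes of -0.27 and -0.59 that were not called. FT 1 week held 123, 16 and 17.1, and FT 2 weeks held 19.2, 158 and 166. Replicate 1 of FT 1 week stood near NI while the other two stood at the level of 72 h, and in FT 2 weeks it was replicate 1 that was low. The group means were therefore 52.0 ± 61.4 (SD, n = 3) and 114 ± 82.5 (SD, n = 3), and neither was called (limma adjusted p = 0.0938 and 0.587). Without FT 1 week replicate 1, *Hspa1a* was -3.13 in log2 with an adjusted p of 0.00725 (range 0.00725 to 0.375).

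*Hspa1b*, the other inducible HSP70 gene, lies 12918 bases from *Hspa1a* between starts on the same strand (34956436 to 34959238). It was 87.4, 84.3 and 111 in NI, 1.72, 17.0 and 26.0 in HS 72 h, and 16.6, 16.4 and 12.1 in FT 72 h. The groups of 72 h did not overlap NI, and HS 72 h replicate 1 was again far below the rest. The log2 fold change was -3.22 after HS (SE 0.78, limma adjusted p = 0.00403) and -2.61 after FT (SE 0.78, adjusted p = 0.0183). *Hspa1b* after FT had an adjusted p of 0.0610 without NI replicate 3 and 0.0544 without FT 72 h replicate 3 (range 0.0389 to 0.0610).

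Later values of *Hspa1b* were 66.3 and 79.4 in HS 1 week, 38.8, 60.5 and 84.1 in HS 2 weeks, 88.6, 10.3 and 12.6 in FT 1 week, and 16.1, 111 and 111 in FT 2 weeks. The same 3 FT libraries were low as for *Hspa1a*, and none of the 4 comparisons with NI was called. Without FT 1 week replicate 1, *Hspa1b* was called in FT 1 week (log2 fold change -2.98, adjusted p = 0.0136, range 0.0136 to 0.462 over libraries left out).

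The coding sequences of the pair were the same at 99.58% of bases, and 58.8% of the 50-base windows of the *Hspa1a* transcript were also in that of *Hspa1b*, so how reads were split between them is uncertain. *Hspa1a* took 54.4% to 73.2% of the reads of both, and the extremes were FT 2 weeks replicate 1 (54.4%, 95% exact binomial interval 49.2% to 59.5%) and HS 72 h replicate 1 (73.2%, 66.4% to 79.3%, 194 reads). These intervals cover counting error only. *Hspa1a* also overlaps *Gm20481* on the other strand, and the library kit does not mark strand.

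*Hspa1l*, a relative used mainly in the testis, starts 547 bases from *Hspa1a* on the opposite strand (34972703 to 34979285). It was sparse, at 4 to 66 reads a library. Its values were 3.93, 4.76 and 3.36 in NI, 0.826, 1.41 and 3.08 in HS 72 h and 2.75, 1.17 and 1.25 in FT 72 h, all 6 below NI, the highest by a narrow margin. The log2 fold changes were -1.10 after HS and -1.08 after FT (SE 0.37, limma adjusted p = 0.0307 and 0.0364). In FT 1 week it was 1.26, 0.387 and 1.18, low in all 3 libraries, with a log2 fold change of -1.70 (adjusted p = 0.00526). In HS 1 week, HS 2 weeks and FT 2 weeks it was 5.31 and 4.33, then 2.5, 1.92 and 2.66, then 2.15, 5.05 and 4.05, with no call. *Hspa1l* overlaps *Gm10501* on the other strand and its coding sequence matches *Hspa1a* at 83.86% of bases. Adding 1 in place of 0.5 took its changes at 72 h under 2-fold (-0.93 and -0.92), and the adjusted p was 0.00596 to 0.176 after HS and 0.0167 to 0.130 after FT over libraries left out.

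*Hspa8*, the constitutive HSC70, was not among the genes that fell. It was 4097, 4222 and 3893 in NI, 4189, 5254 and 5026 in HS 72 h and 4381, 4046 and 4459 in FT 72 h. The groups overlapped, and log2 fold changes were 0.24 (95% interval -0.44 to 0.92) and 0.08 (-0.60 to 0.76). Elsewhere it was 2705 to 5439, apart from 1551 in FT 1 week replicate 1, the library in which the inducible pair was near NI. No comparison of *Hspa8* with NI was called. *Hspa8* (chromosome 9, 40800984 to 40810087) hosts 3 small nucleolar RNA genes in the annotation.

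*Hsph1* encodes HSP110, an exchange factor of HSP70 (chromosome 5, 149614287 to 149636376). It was 86.3, 117 and 133 in NI, 23.0, 36.3 and 46.3 in HS 72 h, 44.6, 31.0 and 31.3 in FT 72 h, and 43.7, 30.3 and 29.3 in FT 1 week. All 9 of these injured libraries were below every NI library. The log2 fold changes were -1.69, -1.64 and -1.69 (SE 0.41 each, limma adjusted p = 0.00367, 0.00519 and 0.0115). In FT 1 week the adjusted p of *Hsph1* was 0.0537 without NI replicate 2, 0.0589 without NI replicate 3 and 0.0608 without FT 1 week replicate 3. It was 74.2 and 69.9 in HS 1 week, 47.9, 99.6 and 113 in HS 2 weeks, and 22.7, 96.6 and 90.9 in FT 2 weeks, where replicate 1 of both 2-week groups was low and none was called.

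*Dnajb1* encodes HSP40, the J-domain partner of inducible HSP70 (chromosome 8, 83608193 to 83612653). It was 269, 351 and 203 in NI, 88.7, 98.0 and 155 in HS 72 h, 119, 41.5 and 121 in FT 72 h, and 98.2, 57.2 and 23.9 in FT 1 week. Each of these 9 libraries was below NI, and those of FT 1 week spread most. The log2 fold change was -1.66 in FT 72 h (SE 0.55, limma adjusted p = 0.0310) and -2.37 in FT 1 week (SE 0.55, adjusted p = 0.00842), and was -1.27 in HS 72 h (adjusted p = 0.0884). The call at FT 72 h was lost without NI replicate 1 (*Dnajb1* adjusted p = 0.0661), NI replicate 2 (0.118) or FT 72 h replicate 2 (0.164). The call at FT 1 week was lost without NI replicate 2 (0.0554) or FT 1 week replicate 3 (0.0840). The remaining groups overlapped NI, at 261 and 227 in HS 1 week, 114, 197 and 338 in HS 2 weeks and 49, 299 and 157 in FT 2 weeks.

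*Hsp90aa1* encodes the stress-inducible form of cytosolic HSP90 (chromosome 12, 110690605 to 110702728). It was 817, 782 and 910.2 in NI, 299, 416 and 431 in HS 72 h, 372, 453 and 342 in FT 72 h, and 571, 222 and 239 in FT 1 week. None of these 9 libraries reached NI. It fell by 1.42 in FT 1 week (SE 0.43, limma adjusted p = 0.0487), and was -1.15 in HS 72 h (adjusted p = 0.0522) and -1.11 in FT 72 h (0.0650), just outside the threshold. The call of *Hsp90aa1* in FT 1 week was lost without any one of NI replicates 1, 2 and 3 (adjusted p = 0.109, 0.122 and 0.149) or FT 1 week replicates 2 and 3 (0.194 and 0.219). It was 663 and 708 in HS 1 week, 351, 944 and 911 in HS 2 weeks, and 255, 955 and 1017 in FT 2 weeks, replicate 1 being low in both 2-week groups.

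The constitutive cytosolic form behaved otherwise. *Hsp90ab1*, named here after its values were seen, was 1820 to 2263 in NI, 1822 to 1946 in HS 72 h and 1845 to 2084 in FT 72 h, with log2 fold changes of -0.09 and -0.06 (limma adjusted p = 0.781 and 0.861).

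*Hspb1* encodes HSP27, a small heat-shock protein (chromosome 5, 135887919 to 135889563). It was 5.96, 6.44 and 7.39 in NI, 2.28, 2.45 and 2.87 in HS 72 h, and 2.25, 3.21 and 1.87 in FT 72 h. No library of 72 h reached NI, but the log2 fold changes of -1.23 and -1.29 missed the threshold (SE 0.48, limma adjusted p = 0.0630 and 0.0555). FT 1 week held 5.71, 1.16 and 1.42, FT 2 weeks 0.936, 5.49 and 5.5, HS 1 week 4.36 and 4.45, and HS 2 weeks 2.34, 3.42 and 6.52. The 3 low FT libraries were again those of the inducible pair, and no comparison was called. Without FT 1 week replicate 1, *Hspb1* in FT 1 week was -1.99 (adjusted p = 0.00719, range 0.00719 to 0.358).

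*Hspd1* and *Hspe1*, for mitochondrial HSP60 and HSP10, went the other way. *Hspd1* (chromosome 1, 55077835 to 55088243, minus strand) was 161, 134 and 142 in NI, 246, 267 and 209 in HS 72 h, and 223, 232 and 183 in FT 72 h, all 6 above NI. Its log2 fold change was 0.72 after HS (SE 0.23, limma adjusted p = 0.0256), under the 2-fold limit, and 0.54 after FT (adjusted p = 0.0953). Without a fold limit HS 72 h would be called, and *Hspd1* then had an adjusted p of 0.0264 to 0.0909 over libraries left out. Later values were 197 and 206, then 172, 214 and 214 after HS, and 86.9, 159 and 219, then 184, 231 and 209 after FT, the lowest again in FT 1 week replicate 1.

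*Hspe1* (55088132 to 55091307, plus strand) was 108, 100.8 and 128 in NI, 157, 228 and 162 in HS 72 h, and 142, 252 and 152 in FT 72 h. All 6 lay above NI, with log2 fold changes of 0.69 and 0.66 (SE 0.27, limma adjusted p = 0.0599 and 0.0780). At later times it was 136 and 161, then 106, 167 and 143 after HS, and 163, 103 and 169, then 111, 226 and 186 after FT, overlapping NI in 3 of the 4 groups. The annotations of the pair overlap by 112 bases on opposite strands, and 5 and 6 pseudogenes bear the names of *Hspd1* and *Hspe1*, so reads could be shared among them.

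**Figure D2:**
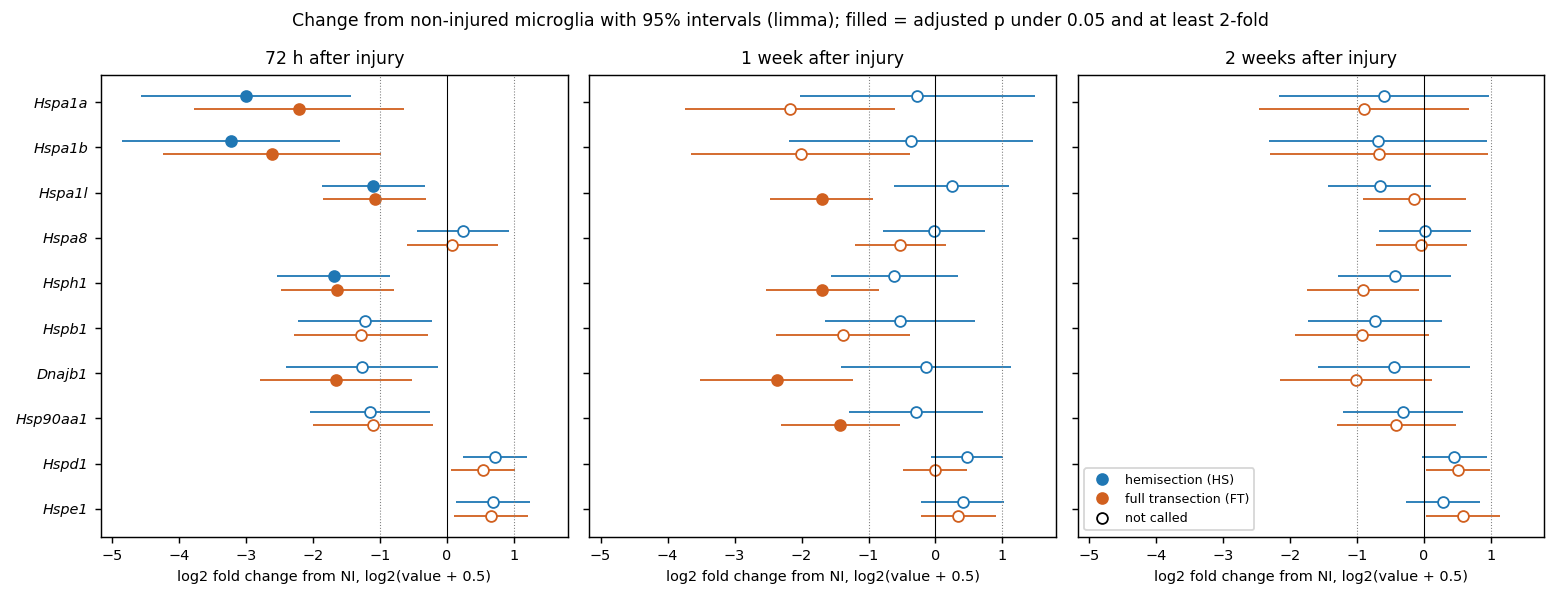
Log2 fold change from NI of each member at 72 h, 1 week and 2 weeks after HS (blue) and FT (orange), with 95% intervals from limma; filled points were called and dotted lines mark 2-fold. At 72 h the filled points lie between -3.22 and -1.08, while *Hspd1* and *Hspe1* lie between 0.54 and 0.72.

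At 1 week the injuries looked unlike each other, though the test of the difference did not pass. No member was called in HS 1 week (0.482% of all genes lower). At an unadjusted p under 0.05 in limma there were 0 members, beside 2147 of 16810 genes. In FT 1 week 4 members fell, *Hspa1l*, *Hsph1*, *Dnajb1* and *Hsp90aa1*, beside 1.2% of all genes called lower. The count of members was 1 without NI replicate 2 or FT 1 week replicate 3, 2 without NI replicate 3, and 7 without FT 1 week replicate 1. At 2 weeks no member was called after HS (0.797% of genes lower) or FT (1.36%). There 0 and 3 members had an unadjusted p under 0.05 in limma, beside 2708 and 3211 of 16810 genes. The edgeR and DESeq2 tests on read counts recovered from the values also called 0 members in HS 1 week, HS 2 weeks and FT 2 weeks.

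FT was compared with HS directly at each time. No member differed in limma at 72 h, 1 week or 2 weeks, where 0% of all genes were called. At an unadjusted p under 0.05 in limma, 0, 5 and 0 members differed, beside 505, 724 and 438 of 16810 genes. The largest differences at 1 week were -2.24 for *Dnajb1* (95% interval -3.51 to -0.96, adjusted p = 0.983) and -1.94 for *Hspa1l* (-2.80 to -1.08, adjusted p = 0.286). *Hspa1l* was called there by DESeq2 (adjusted p = 0.0226) and by the edgeR likelihood ratio test (0.0162), and 0 members by the edgeR quasi-likelihood test. At 72 h the 10 differences lay between -0.39 and 0.79, with intervals that reached from -0.78 to 2.35 for *Hspa1a*. Whether the change from 72 h to 1 week differed between injuries was also tested, and *Hspa1l* had the smallest p of the members (-1.96, SE 0.55, limma adjusted p = 0.996). The changes from 72 h to 2 weeks and from 1 to 2 weeks were tested likewise. No member was called in any of these tests. From 1 to 2 weeks *Hspa1l* differed by 2.46 (SE 0.55, limma unadjusted p = 0.000225).

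Times were also compared within each injury. From 72 h to 1 week after HS, 3 members rose, *Hspa1a* by 2.73 (SE 0.84, limma adjusted p = 0.0441), *Hspa1b* by 2.86 (SE 0.88, adjusted p = 0.0431) and *Hspa1l* by 1.35 (SE 0.41, adjusted p = 0.0433) on the log2 scale, beside 6.03% of all genes called in either direction. From 72 h to 2 weeks after HS, *Hspa1a* rose by 2.41 and *Hspa1b* by 2.54 (adjusted p = 0.0441 and 0.0408), beside 4.74%. The first count of members became 0 without HS 72 h replicate 1 or 2 or either HS 1 week library, and the second 0 without HS 72 h replicate 1 or 2 or HS 2 weeks replicate 2 or 3, and 1 without HS 2 weeks replicate 1. On recovered reads the edgeR quasi-likelihood test and DESeq2 each called 1 member in either comparison, *Hspa1l* in the first and *Hsph1* in the second.

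No member was called between 1 and 2 weeks after HS (0.0119% of all genes), or between 72 h and 1 week (3.44%), 72 h and 2 weeks (3.81%) or 1 and 2 weeks (0.0714%) after FT. In limma 1, 1, 2 and 4 members had an unadjusted p under 0.05 there, beside 789, 3345, 3286 and 773 of 16810 genes. From 72 h to 2 weeks after FT the count of members was 3 without FT 2 weeks replicate 1 (*Hspa1b*, *Hsph1* and *Hsp90aa1*). The edgeR likelihood ratio test called *Hspa1b* between 72 h and 2 weeks, and this test and DESeq2 called *Hspa1l* between 1 and 2 weeks.

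The spread within groups was partly shared among members. Relative to the NI mean on the log2 scale, the median of the 7 members other than *Hspa8*, *Hspd1* and *Hspe1*, a choice made with their values in view, was -1.76, -1.45 and -1.07 in HS 72 h, and -1.30, -1.82 and -1.58 in FT 72 h. It was -0.40 and -0.24 in HS 1 week, and -1.23, -0.59 and -0.01 in HS 2 weeks. It was -0.55, -2.22 and -1.89 in FT 1 week, and -2.30, 0.16 and 0.02 in FT 2 weeks. Thus 1 library at 2 weeks after each injury was as low as those of 72 h, and FT 2 weeks replicate 1 was the lowest of all 20. In FT 1 week replicate 1 the members did not move together. There *Hspa1a* (-0.273), *Hspa1b* (-0.078) and *Hspb1* (-0.188) were near NI. *Hspa1l* (-1.348), *Hsph1* (-1.325) and *Dnajb1* (-1.443) were low in it.

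Immediate-early genes, which are transcribed within minutes of many stimuli including tissue dissociation, also varied between these libraries. Over 22 of them the median relative to NI was -1.26, -1.08 and -0.70 in HS 72 h, -1.19, -0.97 and -0.87 in FT 72 h, and -0.15 and -0.07 in HS 1 week. It was -1.51, 0.16 and 0.42 in HS 2 weeks, -0.27, -2.20 and -2.36 in FT 1 week, and -2.09, 0.19 and 0.14 in FT 2 weeks. At the later times the 4 libraries with medians under -1 were the same for both sets, HS 2 weeks replicate 1, FT 1 week replicates 2 and 3 and FT 2 weeks replicate 1. Smaller shifts did not match throughout, as in HS 2 weeks replicate 2, where the chaperone median was -0.59 and the immediate-early median 0.16, and in FT 1 week replicate 1 (-0.55 and -0.27). Of the 22, 5 fell in HS 72 h, 3 in FT 72 h and 3 in FT 1 week, beside 4.31%, 4.09% and 1.2% of all genes. The medians of the list were -0.98, -1.03 and -1.45 where calls were made.

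*Jun*, a subunit of the AP-1 factor, was 492, 814 and 778.5 in NI, 104, 129 and 209 in HS 72 h, and 122, 114.5 and 201 in FT 72 h. It was 477, 124 and 66.7 in FT 1 week and 67.4, 419 and 407 in FT 2 weeks, the low and high FT libraries being those of the inducible HSP70 pair. Its log2 fold change was -2.26 in both 72 h groups (limma adjusted p = 0.0171 and 0.0187). *Klf4*, a zinc-finger factor, was at -2.49 in HS 72 h (adjusted p = 0.0310), and in FT 1 week *Atf3*, a stress-responsive factor, was at -2.17 (0.0441) and *Egr2*, another zinc-finger factor, at -2.13 (0.0165). The part of these genes, of dissociation or of sorting in the members' levels was not tested.

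**Figure D3:**
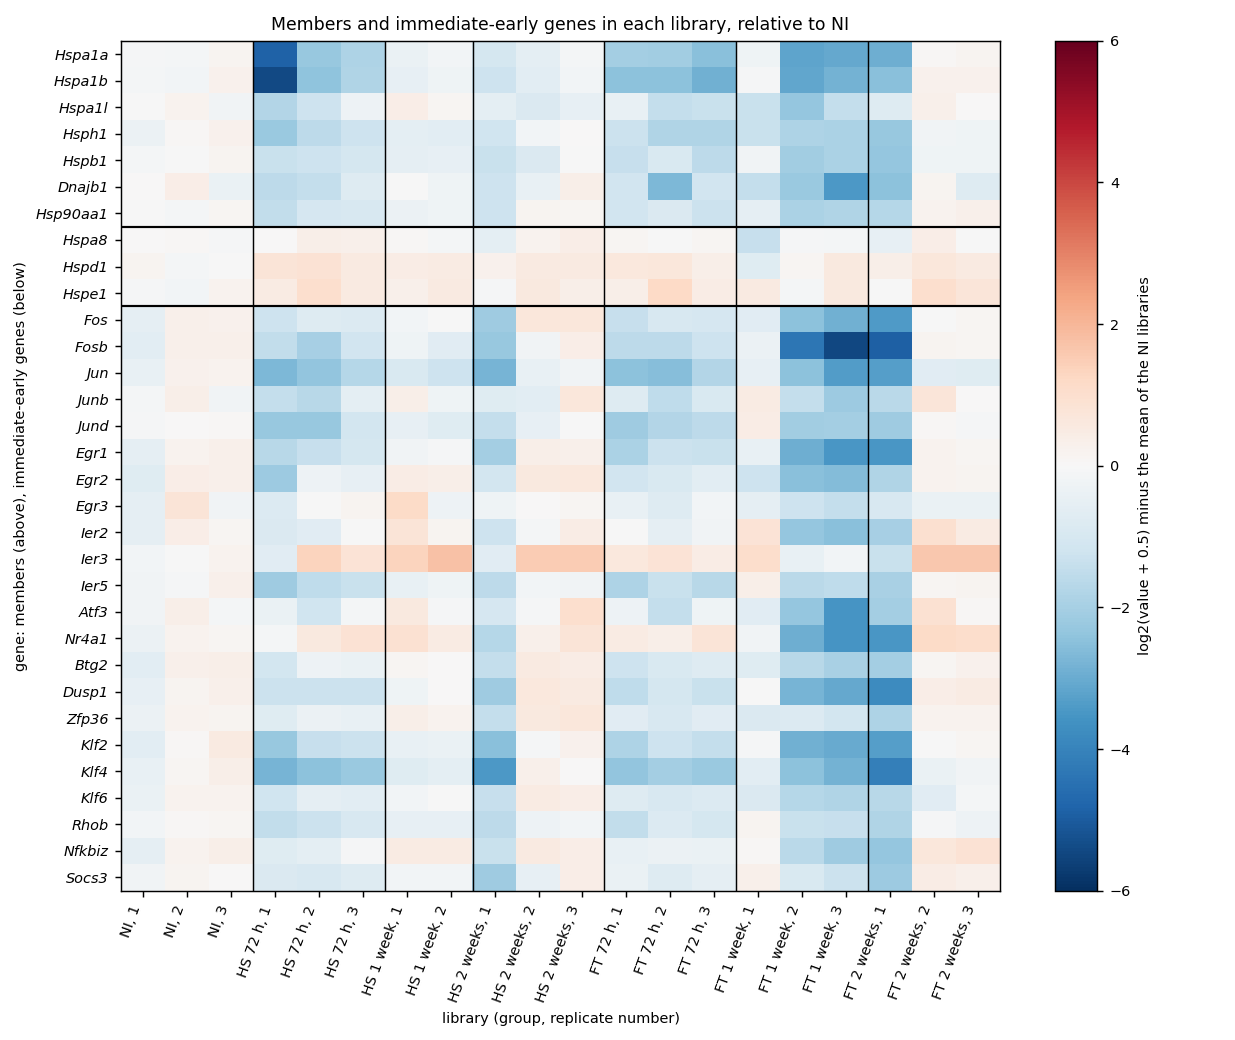
Log2(value + 0.5) minus the NI mean for the 10 members (upper rows, with *Hspa8*, *Hspd1* and *Hspe1* set apart) and 22 immediate-early genes (lower rows) in each of the 20 libraries; blue is lower and red is higher than NI. The columns of FT 1 week replicates 2 and 3 and FT 2 weeks replicate 1 are mostly blue in both blocks, with medians of -2.30 to -1.89 for the 7 upper members.

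Across the 20 libraries, pairs among the 7 members had a Pearson r of 0.65 to 0.99 (median 0.82, 21 pairs), and pairs of these with *Hspa8*, *Hspd1* or *Hspe1* had -0.39 to 0.34 (median -0.06, 21 pairs). After group means were taken away the medians were 0.77 and 0.09, and the latter pairs spanned -0.325 to 0.739. The high end came from *Hspe1*, with 0.739 for *Hsp90aa1* and 0.658 for *Hspb1*. For *Dnajb1* it had 0.138, and for *Hspd1* 0.279. Before group means were taken away, the closest pair was *Hspa1a* and *Hspa1b* (0.989), which share reads. Next were *Hsph1* with *Hsp90aa1* (0.925) and *Hspb1* with *Hsp90aa1* (0.922). *Hspa8* and *Hspd1* had 0.741. All points share libraries and depth, and these values describe them.

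Among 14041 genes with a mean of at least 1, those most like *Hspa1b* over the 20 libraries included *Ccnl1*, a cyclin linked to splicing (r = 0.915), *Ier5*, an immediate-early gene (0.914), *Smad7*, an inhibitor of TGF-beta signalling (0.909), and *Fam161b* (0.909). *Ccnl1* was 196, 239 and 285 in NI and 83.1 to 155 at 72 h, and *Ier5* was 168, 186 and 241 in NI and 44.2 to 77.7 at 72 h, so that groups did not overlap for either. Those most like *Hspd1* were *Azin1*, an antizyme inhibitor (0.917), *Eif1a*, a translation initiation factor (0.909), *Psmd12*, a subunit of the proteasome (0.907), *Bcl10*, an adaptor of NF-kB signalling (0.900), and *Pak1ip1* (0.899). Their Spearman rho with *Hspd1* was lower, from 0.776 (*Pak1ip1*) to 0.887 (*Psmd12*). *Hspd1* and each of these genes had its lowest value in FT 1 week replicate 1, as with 65 for *Azin1* and 27.8 for *Bcl10*. How much of the likeness rests on that library was not tested. *Eif1a* was 48.8 to 59.7 in NI and 87.6 to 125 at 72 h.

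Other chaperone lists had medians at 72 h from -0.64 to 0.82, beside -0.11 and -0.09 over all genes. The group II chaperonin TRiC and its partner prefoldin, which fold actin and tubulin, had 4 of 13 genes higher in HS 72 h and 3 in FT 72 h, with list medians of 0.82 and 0.72 and none lower. Of all genes, 9.08% and 8.14% were called higher there. *Tcp1*, a TRiC subunit, was 83.4, 69.6 and 67.7 in NI, 217, 187 and 158 in HS 72 h, and 162, 167 and 159 in FT 72 h, without overlap. It rose by 1.34 and 1.15 on the log2 scale (limma adjusted p = 0.000911 and 0.00373), *Pfdn1*, a prefoldin subunit, by 1.36 and 1.19, and *Cct5* by 1.08 in HS 72 h. *Pfdn5* rose in FT 1 week and FT 2 weeks (1.04 and 1.07), the 1 gene of the list called in each.

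Of 21 J-domain genes, 1 was higher and 3 lower in HS 72 h, beside 9.08% and 4.31% of all genes, and 2 were higher and 2 lower in FT 72 h, beside 8.14% and 4.09%. The shares called higher were near or under those of all genes, and the shares called lower were above them, on 3 and 2 genes. In FT 1 week 2 were lower, beside 1.2% of all genes. *Dnajc9*, a histone co-chaperone, was 12.6, 9.52 and 4.70 in NI, 61.0, 45.9 and 35.3 in HS 72 h, and 48.8, 22.8 and 33.4 in FT 72 h, and rose by 2.41 and 1.95 (limma adjusted p = 1.23e-05 and 0.000156). *Dnajc2*, which acts at the ribosome, rose by 1.11 in FT 72 h (adjusted p = 0.00205). *Dnajb2* was 21.6, 24.3 and 19.0 in NI, 7.60, 6.78 and 6.15 in HS 72 h, and 5.99, 7.01 and 8.37 in FT 72 h, with log2 fold changes of -1.59 and -1.54 (adjusted p = 8.96e-05 and 0.000137) and -1.16 in FT 1 week (0.00568). *Dnajb5* was also called lower at 72 h (-1.44 and -1.01), and *Dnajb4* in HS 72 h (-1.08) and FT 1 week (-1.43). The median of the list was 0.10 and 0.15 at 72 h.

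Of 15 other HSP70 genes and partners, 1 was higher and 2 lower in HS 72 h, 1 higher in FT 72 h and 1 lower in FT 1 week, with medians of 0.02 and 0.00 at 72 h. Of all genes, 9.08% were higher and 4.31% lower in HS 72 h, 8.14% higher in FT 72 h and 1.2% lower in FT 1 week. *Bag1*, an exchange factor, rose by 1.01 and 1.07 at 72 h (limma adjusted p = 0.00199 and 0.00138), *Hspa2* and *Hspa12b* were lower in HS 72 h (-1.44 and -1.22, adjusted p = 0.0482 and 0.0274), and *Bag3*, an HSF1 target in autophagy, was lower in FT 1 week (-1.22, 0.0195). *Bag3* was 46.1, 49.6 and 46.0 in NI and 23.2, 21.2 and 16.3 in FT 1 week, low in all 3 libraries. Of 16 HSP90 genes and partners, none was called in HS 72 h by limma (4 at an unadjusted p under 0.05, beside 6608 of 16810 genes). In FT 72 h *Cdc37*, which brings kinases to HSP90, rose by 1.02 (adjusted p = 0.000285) and *Ahsa2*, a relative of the HSP90 activator AHA1, fell (-1.16, 0.0158), as it did in FT 1 week (-1.17, 0.0391). Both are single calls, beside 8.14% of all genes higher and 4.09% lower in FT 72 h.

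Of 6 other small heat-shock genes in the table, *Hspb6* rose by 1.58 in HS 72 h and 1.39 in FT 72 h (limma adjusted p = 0.00268 and 0.00776). It was the 1 gene of this list called in each, beside 9.08% and 8.14% of all genes called higher. Of 15 other mitochondrial genes, 3 were higher in HS 72 h, 1 in each of FT 72 h, HS 1 week, FT 1 week and FT 2 weeks, and none was lower. Of all genes, 9.08% were called higher in HS 72 h and 8.14% in FT 72 h, and the FT 72 h count was near that share. *Hscb*, a co-chaperone of iron-sulfur cluster assembly, was 11.4, 13 and 13.8 in NI and 22.2 to 45.9 in all 17 injured libraries. It rose by 1.60 and 1.51 at 72 h, by 1.11 in HS 1 week and by 1.25 and 1.08 in FT 1 week and FT 2 weeks (limma adjusted p = 0.00189 or less). *Dnajc19* and *Dnajc15*, of the import motor, rose by 1.34 and 1.13 in HS 72 h.

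In the endoplasmic reticulum 1 of 20 chaperones was higher and 1 lower at 72 h after each injury, which is near or under the shares over all genes (9.08% and 4.31% in HS, 8.14% and 4.09% in FT). The medians of the list were 0.35 and 0.40. *Dnajc10*, a disulfide reductase, rose by 1.37 and 1.43, and *Dnajb9*, a partner of BiP, fell (-1.26 and -1.09), as it did in FT 1 week (-1.42). Of 11 genes of the unfolded protein response, 1 was higher and 1 lower in HS 72 h, beside 9.08% and 4.31% of all genes. In FT 72 h 2 were lower, beside 4.09%. *Ddit3*, the factor CHOP, fell at 72 h (-1.58 and -1.67), and *Herpud1* fell in FT 72 h (-1.04). *Trib3*, a pseudokinase, rose by 1.27 in HS 72 h, 2.08 in HS 2 weeks, 1.34 in FT 1 week and 2.30 in FT 2 weeks. It was the 1 gene of this list called in each of the later groups named. Of 5 heat-shock factor genes, *Hsbp1*, a negative regulator of HSF1, rose by 1.13 in HS 72 h (limma adjusted p = 0.000246). This was 1 call, beside 9.08% of all genes called higher there. *Hsf1* itself, named after its values were seen, was 36.8, 37.3 and 22.6 in NI and 5.26 to 32.4 at 72 h, with overlap and log2 fold changes of -0.56 and -0.92 (adjusted p = 0.458 and 0.228).

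**Figure D4:**
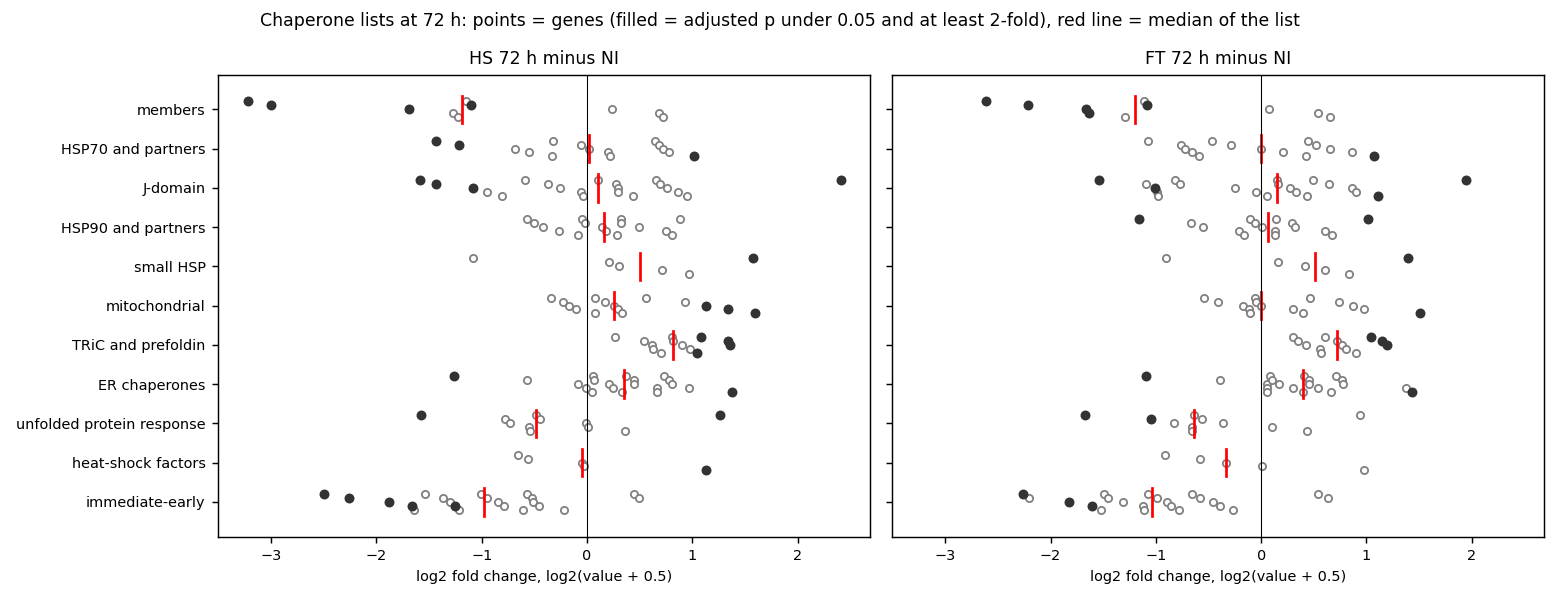
Log2 fold change from NI at 72 h after HS (left) and FT (right) for the genes of each chaperone list and the immediate-early list; points are genes, filled where called, and red lines are list medians. The members and the immediate-early genes have medians between -1.2 and -0.98, and TRiC with prefoldin has the highest at 0.82 and 0.72.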

How the data were processed

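Sorted microglia gave 20 RNA-Seq libraries in 7 groups, assigned by their labels. The authors mapped reads with TopHat2 2.0.9 to mm10, counted them per gene with HTSeq 0.5.4p3 and scaled them with edgeR, and the deposited signal is this normalized count. Libraries were made with a SMARTer and Nextera kit, which does not mark strand; batches are not given in the sources used here. All 336200 values were whole reads (tolerance 0.01 read) once divided by the step of their column, which gave the depth of 3.87 to 34.1 M reads. Normalized values were fitted on log2(value + 0.5) with limma 3.58.1 (intensity trend, 1 mean per group, all 20 libraries, Benjamini-Hochberg over 16810 genes). Calls needed an adjusted p under 0.05 and a 2-fold change. The edgeR 4.0.16 and DESeq2 1.42.0 tests used the recovered reads. The fits were tested on simulated data. The members and the gene lists (234 of 244 listed genes were in the table) were chosen with earlier results of these data known. Named genes are all members, per chaperone list up to 3 genes called in each direction with the largest change at 72 h and up to 2 later, up to 4 immediate-early genes, and 5 genes most like *Hspa1b* and *Hspd1*, of which 1 is not reported here. Gene positions are from GENCODE for GRCm38, and starts from RefSeq GRCm38.p6. Alternatives were other added values, a filter on low values, other scalings and tests, no fold limit, a replicate block and leaving out each library.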

Additional observations from a re-analysis of the deposited data

How the results depend on the processing

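No member changed direction where it had been called. With only the libraries of the groups compared, 7 members were called in HS 72 h and 5 between 72 h and 1 week after HS. With columns scaled to 1 total, 7 members were called in HS 72 h and 1 (*Hsph1*) in FT 2 weeks; this scaling moved the median over all genes, in log2, from -0.11 to -0.52 in HS 72 h and from -0.09 to -0.48 in FT 72 h, and it lowers the members with them. With the edgeR likelihood ratio test, 7 members were called in HS 72 h and 1 in each of FT minus HS at 1 week, FT 72 h to 2 weeks and FT 1 to 2 weeks. DESeq2 called 1 in FT minus HS at 1 week, 1 between FT 1 and 2 weeks, and 1 between 72 h and 1 week and 1 between 72 h and 2 weeks after HS; the edgeR quasi-likelihood test also called 1 in each of the latter. Leaving out single libraries gave 2 to 4 members in HS 72 h, 2 to 4 in FT 72 h, 1 to 7 in FT 1 week, 0 to 3 between 72 h and 1 week after HS, 0 to 3 between 72 h and 2 weeks after HS and 0 to 3 between 72 h and 2 weeks after FT. Where the cause of such a move is not the smaller number of libraries, it was not tested. Deviations of same-numbered libraries had a median r of 0.002 over 57 pairs, beside 0.001 over 114 pairs of other numbers. Single pairs reached 0.444 and 0.429. For 9 of 20 libraries the best-correlated library of another group had the same number. These values do not show that the numbers pair libraries, and they cannot exclude it. A replicate block gave 4, 5 and 4 members in HS 72 h, FT 72 h and FT 1 week, and 3 in place of 2 between 72 h and 2 weeks after HS (*Hsph1* added). Depth limits *Hspa1l*, with as few as 4 reads, and *Hspb1* most.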
